A study of Homo sapiens with 6 samples.

Results

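Aldo-keto reductases and carbonyl-detoxifying dehydrogenases were followed in SH-SY5Y, a long-established cell line from a human neuroblastoma of sympathetic origin. The set held 10 listed genes, 5 of the AKR1 family (AKR1C1, AKR1C2, AKR1C3, AKR1B1 and AKR1A1), 4 aldehyde dehydrogenases (ALDH2, ALDH3A2, ALDH7A1 and ALDH9A1) and the short-chain reductase DHRS2. Probe sets were matched to them by symbol in the platform annotation, which gave values for 8 of the 10, with 1 probe set each. AKR1B1 and AKR1A1 have no row under that name and were not analysed here. The list was selected on earlier results of these same arrays, the differences between 15EN and VC, so those differences are given for the 8 genes as a description, and nothing is drawn from whether one of them passes a threshold. A total of 17687 genes was measured.

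The 6 single-colour whole-transcript arrays form 2 groups of 3, 15EN and the vehicle control VC. All cells of both groups had been differentiated with atRA (all-trans retinoic acid) over 96 h, and the treatment text gives the bioactive compound at 15 µM. The series title names that compound as eurycomanone, from the root of Eurycoma longifolia, while the labels do not spell out 15EN. Each group held 1 sample at each of passages 33, 34 and 35 (replicates 1, 2 and 3), although all descriptions name passage 33. All cells come from 1 tumour-derived line, and the labels say nothing of separate cultures beyond the passage, so any p-value covers the spread between these arrays only, which may be technical.

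Carbonyl compounds such as aldehydes and ketones arise from lipid peroxidation, amine oxidation, steroids and sugars, and many aldehydes bind proteins and DNA. Aldo-keto reductases and short-chain reductases reduce them to alcohols, mostly with NADPH, whereas aldehyde dehydrogenases oxidise aldehydes to acids with NAD or NADP. In catecholamine cells, monoamine oxidase turns dopamine into a reactive aldehyde that aldehyde dehydrogenases and aldo-keto reductases clear. Several AKR1C genes are known in human cells as targets of the oxidative stress factor NRF2, which binds antioxidant response elements.

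The start regions of the AKR1C genes and of DHRS2 are shown because the AKR1C genes are close relatives, described below together with DHRS2 as the listed genes with signals near background. The 3 AKR1C genes all lie on chromosome 10, and their close similarity means that a probe can bind the transcript of a neighbour, so their levels are uncertain per gene. Each region runs from 250 bases before to 50 bases after an annotated transcript start (RefSeq, GRCh38.p14), 5′ to 3′ on the gene's strand. Capitals mark the searched motifs found there.
AKR1C1, chr10:4963165-4963464, plus strand: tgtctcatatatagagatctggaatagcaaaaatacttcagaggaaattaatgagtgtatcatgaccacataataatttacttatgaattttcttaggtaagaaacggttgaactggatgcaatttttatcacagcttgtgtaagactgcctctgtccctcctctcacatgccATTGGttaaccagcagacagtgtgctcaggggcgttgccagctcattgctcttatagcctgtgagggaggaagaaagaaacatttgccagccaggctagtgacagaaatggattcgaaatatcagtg
AKR1C2, chr10:5003808-5004107, minus strand: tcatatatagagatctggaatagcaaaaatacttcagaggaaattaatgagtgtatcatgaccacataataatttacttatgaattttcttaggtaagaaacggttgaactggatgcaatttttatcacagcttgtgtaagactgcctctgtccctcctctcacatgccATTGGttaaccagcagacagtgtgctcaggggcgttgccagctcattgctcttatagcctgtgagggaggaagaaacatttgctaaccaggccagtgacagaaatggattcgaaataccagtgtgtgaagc
AKR1C3, chr10:5048531-5048830, plus strand: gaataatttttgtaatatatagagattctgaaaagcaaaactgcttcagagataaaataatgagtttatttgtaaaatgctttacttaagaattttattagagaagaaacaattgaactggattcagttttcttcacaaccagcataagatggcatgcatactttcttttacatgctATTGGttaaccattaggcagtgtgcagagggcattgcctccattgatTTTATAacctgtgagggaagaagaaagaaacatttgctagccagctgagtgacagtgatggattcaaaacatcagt
DHRS2, chr14:23629865-23630164, plus strand: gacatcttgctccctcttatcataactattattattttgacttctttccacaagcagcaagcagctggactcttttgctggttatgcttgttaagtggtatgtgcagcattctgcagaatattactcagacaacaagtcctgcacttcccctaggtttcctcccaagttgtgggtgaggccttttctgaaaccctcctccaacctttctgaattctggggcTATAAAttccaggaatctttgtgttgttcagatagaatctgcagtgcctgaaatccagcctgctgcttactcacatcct

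The regions of AKR1C1 and AKR1C2 were 93.5% identical in a global alignment, and that of AKR1C3 was 73.5% identical to AKR1C1 and 69.4% to AKR1C2. A further AKR1C3 start, at chr10:5094164-5094463, was 71.0% identical to AKR1C1. Every one of these 4 AKR1C regions held a CCAAT box read on the opposite strand (capitals ATTGG), 73 to 86 bases before the start. Over all 35116 start regions of the table, 34.6% held CCAAT on either strand. The DHRS2 region held a TATA box (TATAAA) 29 bases before the start, and the first AKR1C3 region held one on the opposite strand, against 11.5% of all regions. The motif TGACNNNGC, the core of the antioxidant response element, was present in 0 of the 9 regions of the 7 members with an entry, and in 13.3% of all regions. The AP-1 motif TGANTCA was also in 0 of the 9, against 7.71% of all. The GC box GGGCGG was in 0 of the 5 AKR1C and DHRS2 regions (33.7% to 44.0% G and C). It was in 3 of the 4 ALDH3A2, ALDH7A1 and ALDH9A1 regions (55.0% to 73.3% G and C). Of all regions 45.0% held it. Motifs were searched on both strands, and a motif outside these windows would not be seen. ALDH2 has no entry in the table.

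Mean signals of AKR1C1, AKR1C2, AKR1C3, ALDH2 and ALDH7A1 were lower in 15EN, and those of DHRS2, ALDH9A1 and ALDH3A2 were higher, while scaling to the hybridization controls turned AKR1C2 and ALDH7A1 the other way. Groups did not overlap on the arrays for 7 of the 8, with ALDH7A1 the exception, where 36.3% of all genes had groups apart. In the limma fit over all genes 5 of the 8 had an adjusted p under 0.05 (DHRS2 and ALDH9A1 higher, AKR1C1, AKR1C3 and ALDH2 lower), where 21.4% of all genes were called, 12.3% higher and 9.09% lower. AKR1C1 was not among them without VC replicate 2, nor ALDH9A1 without any 1 array other than 15EN replicate 3. Since the genes were picked with this contrast known, these counts are no test of the genes and nothing is read from them. The median log2 difference (15EN minus VC) was -0.32 over the 8 genes and 0.01 over all genes.

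**Figure D1:**
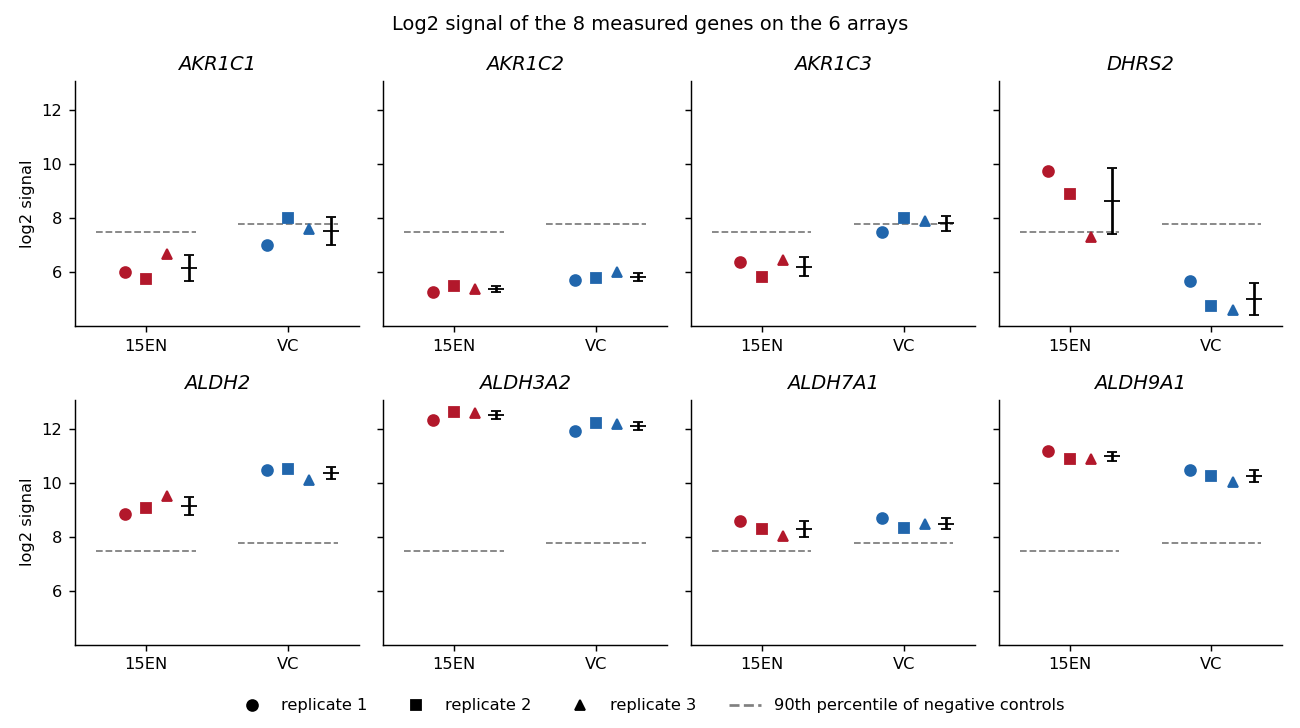
Log2 signal of the 8 measured genes on each array, with 15EN (red) left of VC (blue) in each panel. Markers give the replicate number, bars the group mean ± SD (n = 3), and the dashed line the mean 90th percentile of the negative controls in each group. The AKR1C genes and DHRS2 lie near or below that line in at least 1 group, and the ALDH genes lie above it in both.

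AKR1C3, which reduces steroid and prostaglandin ketones, had log2 signals of 6.37, 5.81 and 6.44 in 15EN replicates 1, 2 and 3, against 7.50, 8.01 and 7.91 in the VC replicates. All 15EN arrays were below all VC arrays. The means were 6.21 ± 0.35 in 15EN and 7.81 ± 0.27 in VC (SD, n = 3 each), a log2 difference of -1.60 ± 0.25 (SE), or a 3.03-fold lower signal in 15EN. The same-numbered differences were -1.13, -2.20 and -1.47.

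AKR1C1, which inactivates progesterone and reduces lipid aldehydes, had log2 signals of 6.03, 5.77 and 6.68 in 15EN, against 6.99, 8.01 and 7.61 in VC. The groups were apart, with 15EN replicate 3 the closest to VC replicate 1. The log2 difference was -1.38 ± 0.32 (SE), a 2.61-fold lower signal in 15EN. With 1 array left out it ran from -1.65 (without VC replicate 1) to -1.15 (without VC replicate 2).

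AKR1C2, a reductase of dihydrotestosterone and bile acid binder, had 5.29, 5.49 and 5.38 in 15EN, against 5.72, 5.79 and 6.0 in VC. The arrays of the groups did not overlap, but the log2 difference of -0.45 ± 0.20 (SE) was small. Whether the differences of the 3 AKR1C genes differ from one another was not tested.

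The AKR1C signals were dim. The 612 negative control probe sets describe the background here, by a 90th percentile of 7.41 to 7.51 in 15EN arrays and 7.55 to 7.99 in VC arrays. This is a high bar, near the median signal of the arrays (7.67 to 7.75). Of the 17687 genes, 8407 had means below the highest percentile of each group's arrays in both groups. AKR1C1 exceeded the percentile on 0 of 3 arrays in 15EN and 1 of 3 in VC, AKR1C3 on 0 and 2, and AKR1C2 on none of the 6. All signals of these genes lay above the negative control medians (4.75 to 5.06). With each 15EN array set no lower than its percentile, the log2 difference was -0.33 for AKR1C3 and -0.07 for AKR1C1. For AKR1C2 it was 1.64, with the sign turned. All 15EN arrays of these genes lay below the percentile, and VC was left as it was. These values thus compare only the 15EN percentile with the VC mean and are no estimates of a difference. The sizes of these differences are therefore uncertain.

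DHRS2, a short-chain reductase of dicarbonyl compounds, had log2 signals of 9.74, 8.88 and 7.31 in 15EN, against 5.69, 4.75 and 4.61 in VC. Every 15EN array was above every VC array, and the 15EN arrays were spread far more widely than those of the other 7 genes. Means were 8.64 ± 1.23 in 15EN and 5.01 ± 0.59 in VC (SD, n = 3 each), and the log2 difference was 3.63 ± 0.53 (SE), a ratio of 12.4 that is uncertain in size.

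All DHRS2 signals in VC lay below the negative control percentile and near the negative control medians of 4.97 to 5.06. The 15EN signals of replicates 1 and 2 lay above the percentile of their arrays, and that of replicate 3 just below it (7.50). With each VC array set no lower than its percentile, the log2 difference was 0.86. As all VC signals lay below it, this value compares the 15EN mean with the VC percentile only. The same-numbered differences were 4.05, 4.13 and 2.70, and with 1 array left out the log2 difference ran from 3.08 (without 15EN replicate 1) to 4.29 (without 15EN replicate 3).

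ALDH2, the mitochondrial enzyme that clears acetaldehyde and the aldehyde of dopamine, was well above the negative controls on all 6 arrays. Its log2 signals were 8.86, 9.07 and 9.50 in 15EN, against 10.48, 10.50 and 10.09 in VC. The groups were apart, with replicate 3 the nearest pair. The log2 difference was -1.22 ± 0.24 (SE), a 2.32-fold lower signal in 15EN. By replicate number it was -1.63, -1.43 and -0.59, and with 1 array left out it ran from -1.40 (without 15EN replicate 3) to -1.07 (without 15EN replicate 1).

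ALDH9A1, which makes the precursor of carnitine and can also oxidise an aldehyde on the route from putrescine to GABA, had log2 signals of 11.16, 10.89 and 10.88 in 15EN, against 10.48, 10.25 and 10.04 in VC. All 15EN arrays were above all VC arrays, and the same-numbered differences were alike at 0.68, 0.64 and 0.84. The log2 difference was 0.72 ± 0.22 (SE), a ratio of 1.65. With 1 array left out it ran from 0.61 to 0.83.

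ALDH3A2, the microsomal dehydrogenase of long-chain fatty aldehydes, had 12.33, 12.60 and 12.59 in 15EN, against 11.92, 12.22 and 12.16 in VC. The groups were narrowly apart, with a lowest signal of 12.33 in 15EN and a highest of 12.22 in VC. The same-numbered differences were 0.41, 0.38 and 0.43. The log2 difference was 0.41 ± 0.21 (SE).

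ALDH7A1, which acts in lysine breakdown, had 8.57, 8.27 and 8.01 in 15EN, against 8.69, 8.32 and 8.45 in VC. The groups overlapped, and the log2 difference was -0.20 ± 0.23 (SE), within the spread of the arrays.

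**Figure D2:**
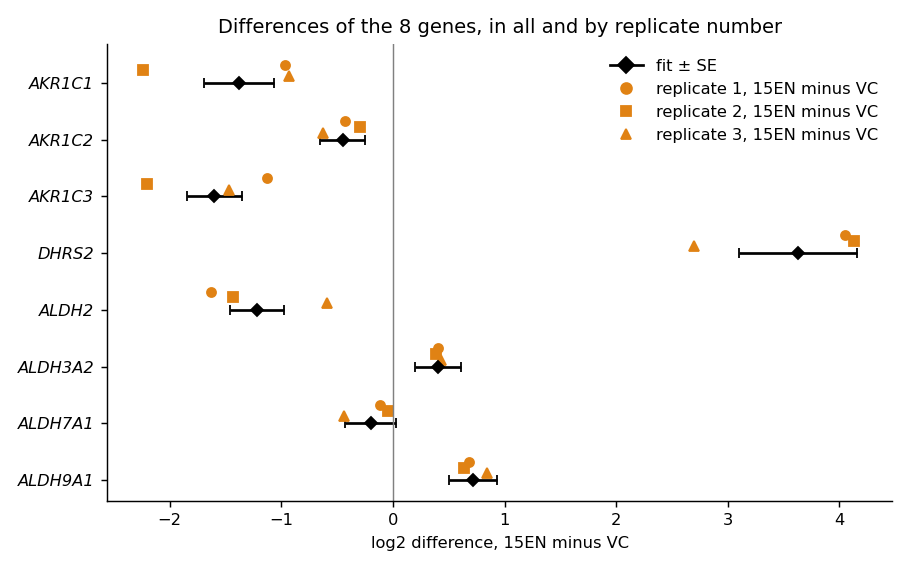
Log2 difference (15EN minus VC) of the 8 genes from the fit over all arrays ± its SE (black diamonds), and for each replicate number (orange markers). DHRS2 lies farthest from 0, and the 3 same-numbered differences of ALDH3A2 (0.38 to 0.43) lie closest together.

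Replicate number and passage coincide, so the spread between same-numbered differences may hold both. AKR1C1 and AKR1C3 both had their largest fall at replicate 2 (-2.24 and -2.20). DHRS2, ALDH2 and AKR1C1 had their smallest difference at replicate 3 (2.70, -0.59 and -0.93). AKR1C2, ALDH3A2, ALDH7A1 and ALDH9A1 had their largest there (-0.62, 0.43, -0.44 and 0.84). Over all probe sets, 15EN replicate 3 stood apart from the other 15EN arrays (Pearson's r of 0.979 to 0.980). That r was 0.991 between 15EN replicates 1 and 2 and 0.990 to 0.992 among VC arrays. A link between that array and these differences was not tested.

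**Figure D3:**
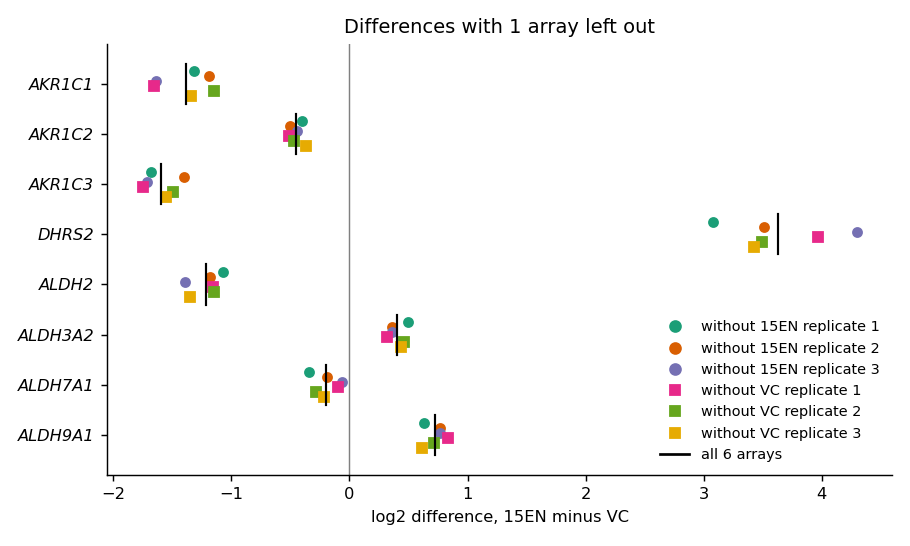
Log2 difference (15EN minus VC) of the 8 genes with 1 array left out, coloured by that array, beside the value of all 6 arrays (black bars). No gene changed sign in these 6 fits, and DHRS2 moved over the widest span (3.08 to 4.29).

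A scale that differs between the groups would shift all genes alike. The 4 hybridization controls, labelled targets added before hybridization, averaged 10.31 to 10.60 in 15EN and 11.22 to 11.37 in VC. With arrays scaled to equal controls, the median gene moved to 0.88, and values there are read against it. This scaling adds a constant to every group difference. Distances to the median gene are therefore those of the deposited values and are no further check. The split of calls over all genes moved to 12150 higher and 437 lower, against 2179 higher and 1608 lower as deposited. AKR1C3 then stood at -0.73 (1.61 below the median gene), AKR1C1 at -0.51 (1.39 below) and ALDH2 at -0.35 (1.23 below). DHRS2 stood at 4.50 (3.61 above the median gene) and ALDH9A1 at 1.59 (0.71 above). AKR1C2 and ALDH7A1 turned positive (0.42 and 0.67), below the median gene as in the deposited values.

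Markers of the cell line were checked once. Of 12 sympathetic neuroblastoma markers 11 were measured, and HAND2 (12.53 ± 0.23 in 15EN, 12.44 ± 0.15 in VC) and GATA3 (12.80 ± 0.13 in 15EN, 12.72 ± 0.27 in VC) were bright. TH and CHGA were below the negative control percentile on all arrays. In 15EN 7 of the 11 were lower and 0 higher (limma, adjusted p over all genes, where 9.09% of all genes were lower and 12.3% higher). The log2 differences of the 7 were -2.69 (NEFM), -1.72 (STMN2), -1.59 (DBH), -1.25 (CHGA), -1.19 (ISL1), -1.19 (GAP43) and -0.88 (PHOX2A). Only 2 of the 11 had a positive difference, HAND2 (0.09) and GATA3 (0.07). The 11 had a mean log2 signal of 9.65 to 9.75 per array in 15EN, against 10.61 to 10.74 in VC. Of 5 fibroblast markers 1 was lower (COL1A1) and 0 higher, with means of 8.89 to 9.96 in 15EN and 9.66 to 10.30 in VC, and PDGFRB was bright in both groups (13.72 ± 0.27 in 15EN, 13.57 ± 0.03 in VC). The 4 glial markers, all below that percentile on average, had means of 4.73 to 5.24 in 15EN and 4.91 to 5.12 in VC, with 0 called. The part of these shifts in the values of the listed genes was not tested. In such bulk samples, fewer cells of a type and less RNA per cell cannot be told apart.

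The relatives of the listed genes were taken by symbol as all other measured AKR, ALDH, DHRS, CBR, ADH, RDH, HSD17B and HSD11B genes. Of these 63, 2 rose and 3 fell (limma, adjusted p over all genes), which is 7.94% against the 21.4% of all genes. Their median log2 difference was 0.04. Of the 39 that were dim in both groups (means below the highest negative control percentile of each group's arrays) 1 was called (2.56%, against 5.7% of all genes as dim), and of the other 24, 4 were called (16.7%, against 35.6% of all other genes). In the AKR family outside the list, 1 of 8 was called, in ALDH 1 of 15, in DHRS 1 of 10 and among the rest 2 of 30. Without 15EN replicate 3 the counts were 4 higher and 6 lower (30.9% of all genes were called there), and without any other array they ran from 1 to 2 higher and from 0 to 1 lower.

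DHRS7B, a peroxisomal short-chain reductase of ether lipid synthesis, had 9.10, 9.23 and 9.43 in 15EN, against 7.85, 7.87 and 7.96 in VC. The groups were well apart, and it rose by 1.36 ± 0.20 (SE, limma adjusted p = 0.00136), called without each array in turn. Its VC signals were near background, above the negative control percentile on 2 of 3 arrays. With each VC array set no lower than its percentile, its log2 difference was 1.31. CBR1, a cytosolic carbonyl reductase, had 10.13, 9.81 and 10.56 in 15EN, against 9.29, 9.15 and 9.67 in VC. It rose by 0.80 ± 0.25 (limma adjusted p = 0.0492) with groups apart, but among the fits with 1 array left out it was called only without 15EN replicate 2.

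HSD17B4, a peroxisomal enzyme of fatty acid breakdown, had 9.88, 9.15 and 9.77 in 15EN, against 10.68, 10.32 and 10.57 in VC. It fell by 0.92 ± 0.25 (limma adjusted p = 0.0234), with groups apart, and lost its call without 15EN replicate 2 or any VC array. ALDH1L2, the mitochondrial folate enzyme, had 6.79, 7.31 and 7.15 in 15EN, against 7.64, 8.04 and 7.75 in VC, dim in both groups. It fell by 0.73 ± 0.23 (limma adjusted p = 0.0443), called only without 15EN replicate 3 among the fits with 1 array left out. AKR7A2, which reduces succinic semialdehyde, had 7.89, 8.07 and 8.16 in 15EN, against 8.85, 8.57 and 8.62 in VC. It fell by 0.64 ± 0.21 (limma adjusted p = 0.0488), with groups apart, and was also called only without 15EN replicate 3. With the replicate number as a block AKR7A2 no longer passed (adjusted p = 0.0646), and DHRS4L2 did (adjusted p = 0.0445), as did ALDH5A1 (0.0483). CBR1 and AKR7A2 also missed the threshold after median centring (adjusted p = 0.0535 and 0.0509). Over all alternatives the adjusted p ran from 0.0191 to 0.411 for AKR7A2, 0.000659 to 0.184 for CBR1 and 0.0429 to 0.591 for DHRS4L2. HSD17B4, ALDH1L2 and AKR7A2 did not pass when arrays were scaled to the hybridization controls (-0.052, 0.14 and 0.23, each below the median gene there).

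Of the relatives that did not pass, the 2 of highest mean signal are given by value for AKR, ALDH and DHRS each. The same was done for the remaining families pooled (CBR, ADH, RDH, HSD17B and HSD11B). AKR1E2 differed by 0.18 ± 0.28 and AKR7A3, dim in both groups, by -0.37 ± 0.22 (SE). ALDH18A1, which starts proline synthesis, differed by 0.04 ± 0.26, and ALDH1B1, a mitochondrial relative of ALDH2, by 0.41 ± 0.24. DHRS7 differed by 0.07 ± 0.21 and DHRS4L2 by -0.70 ± 0.27, where probes may also bind near-identical DHRS4 copies. RDH10, which oxidises retinol to retinal, had 13.52, 14.08 and 15.18 in 15EN, against 13.29, 13.64 and 14.0 in VC, and these groups overlapped (0.62 ± 0.38). ADH5, the formaldehyde-clearing dehydrogenase, differed by -0.53 ± 0.22 with groups apart.

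**Figure D4:**
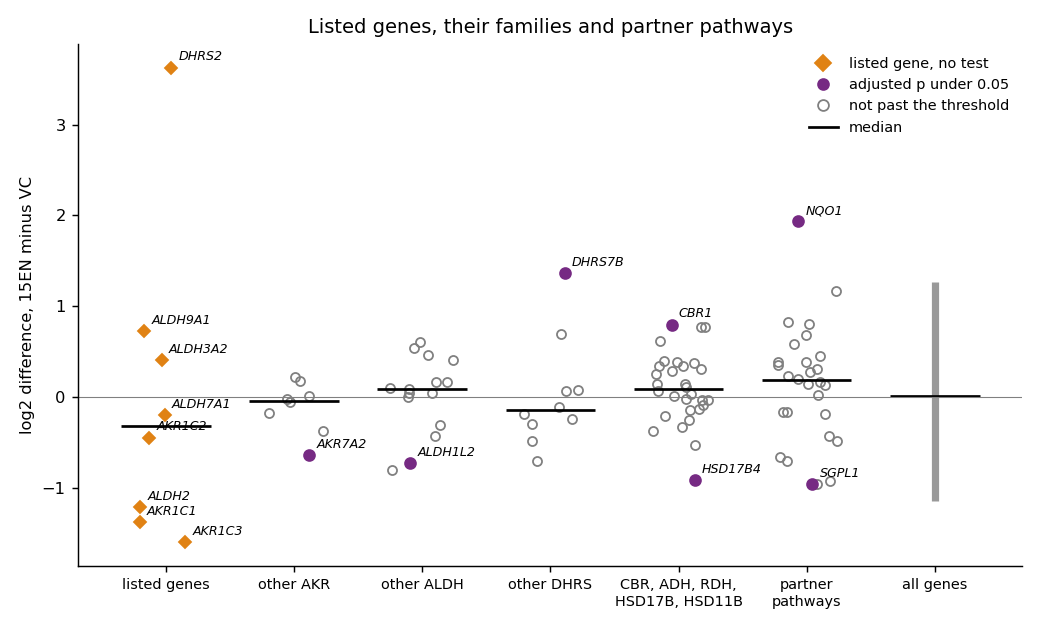
Log2 difference (15EN minus VC) of the 8 listed genes, of their relatives by family, and of partner pathway genes, 1 point per gene. Listed genes are orange diamonds, and relatives and partner genes that passed adjusted p 0.05 are filled and named. Black bars are medians, and the grey bar spans the 5th to 95th percentile of all genes (-1.15 to 1.27). Of the relatives only DHRS7B lies outside that span, of the partner genes only NQO1, and of the listed genes DHRS2, ALDH2, AKR1C1 and AKR1C3.

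Partner genes form or clear carbonyls beside the listed enzymes. Of 28 measured, 1 rose and 1 fell (limma, adjusted p over all genes, against the 21.4% of all genes called), with a median log2 difference of 0.18. NQO1, an NADPH quinone reductase and known NRF2 target, had 14.27, 14.51 and 15.23 in 15EN, against 12.00, 12.93 and 13.27 in VC. It rose by 1.93 ± 0.35 (SE, limma adjusted p = 0.00382) with groups apart, called without each array in turn. The listed AKR1C genes, several of them also known as NRF2 targets, stood at -1.38 (AKR1C1), -0.45 (AKR1C2) and -1.60 (AKR1C3) on the same scale. Their 15EN signals lay below the negative control percentile on all arrays, so those sizes are uncertain. NRF2 targets were not compared as a set here.

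SGPL1, which releases a long-chain aldehyde from sphingosine phosphate and so makes a substrate of ALDH3A2, had 10.41, 10.47 and 9.74 in 15EN, against 11.09, 11.31 and 11.11 in VC. It fell by 0.96 ± 0.25 (limma adjusted p = 0.0188) with groups apart, and lost its call without any 1 VC array. SGPL1 also did not pass when arrays were scaled to the hybridization controls (-0.094, below the median gene there). With the replicate number as a block, 3 partner genes rose and 3 fell of the 28, while 23.8% of all genes were called in that fit. The added ones, named after their values were seen, were AOC2 (1.17, adjusted p = 0.0491) and SMOX (0.82, adjusted p = 0.024), both amine oxidases and dim in both groups, and in the other direction FAR2 (-0.96, adjusted p = 0.0228), a fatty alcohol-forming reductase, and GSTA4 (-0.93, adjusted p = 0.0292), which conjugates lipid alkenals to glutathione. AOC2 exceeded the negative control percentile on 0 of 6 arrays, and its same-numbered differences were 1.59, 2.10 and -0.18. With 1 array left out it ran from 0.73 to 1.86. SMOX exceeded the percentile on 1 of 3 arrays in 15EN and 0 of 3 in VC. Over all alternatives the adjusted p ran from 0.000128 to 0.356 for AOC2, 0.00148 to 0.244 for SMOX, 0.00742 to 0.845 for FAR2 and 0.0018 to 0.873 for GSTA4. Without 15EN replicate 3 the partner counts were 3 higher and 4 lower, without VC replicate 1 they were 2 and 0, and without VC replicate 2 or 3 they were 1 and 0.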

How the data were processed

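The authors deposited 1 table of log2 signals, 1 value per probe set and array, made with the Transcriptome Analysis Console per the submitters' processing notes. Not given in the sources used here are its version, summarization, normalization and genome build. The log2 scale was judged from the values. Of 24351 probe sets, 2903 were controls and 17709 carried 1 symbol in the platform annotation (3739 gene probe sets unnamed, 0 with several). For a gene with several probe sets the one of highest mean was kept, leaving 17687 genes. Precision is limited by the number of arrays.

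Groups were compared in limma 3.58.1 (R 4.3.3, lmFit and eBayes, a two-sided test of group with no other term), p-values were adjusted by Benjamini-Hochberg over all genes, with a threshold of 0.05, and no filter on dim genes. The procedure was run on simulated data with independent arrays. That simulation held no pairing by replicate and no array that stood apart, so it says nothing of those. Members and lists were chosen with earlier results of these data known. The text names all measured members and up to 10 called genes per direction of each other list. It also names the 2 uncalled genes of highest mean for AKR, ALDH and DHRS each and for the remaining families pooled. Where a gene was picked after its values were seen, the text says so. Same-numbered arrays share a passage in the labels. Their deviations from the group means correlated across genes (0.229, 0.162 and 0.133), against -0.138 to -0.0165 between different numbers. Deviations sum to 0 within a group, so these values are not independent. The numbers may pair the samples, which the main fit leaves out and the replicate block takes in. Alternatives were the replicate block, quantile normalization, median centring, hybridization control scaling, array weights, a trended robust prior, the mean of probe sets, leaving out the dimmest 33.3% of genes, and each array left out. Start regions were aligned with Biopython 1.88 (global, gaps counted in the length).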

Additional observations from a re-analysis of the deposited data

How the results depend on the processing

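As a description of the listed genes, the log2 difference over 14 alternatives ran from -1.75 to -0.73 for AKR1C3, from -1.65 to -0.51 for AKR1C1, from -1.40 to -0.35 for ALDH2, from 3.08 to 4.50 for DHRS2, from 0.61 to 1.59 for ALDH9A1 and from 0.30 to 1.27 for ALDH3A2. AKR1C2 could not be given without the dimmest 33.3% of genes, which left it out. Scaling to the hybridization controls adds a constant to every gene and gave 12150 higher and 437 lower genes in all, 4 higher and 1 lower of the listed genes, 47 and 0 of their relatives and 21 and 0 of the partner genes. It also turned AKR1C2 (0.42), ALDH7A1 (0.67), ALDH1L2 (0.14), AKR7A2 (0.23), AKR7A3 (0.50), DHRS4L2 (0.17), ADH5 (0.34), ALDH5A1 (0.068) and ALDH1A1 (0.44) positive, all below the median gene there. Quantile normalization left 1 listed gene and 1 relative higher, and turned ALDH18A1 (-0.072) and DHRS7 (-0.030) negative. Of the relatives, median centring left 1 higher, array weights gave 5 higher, and the trended prior left 1 lower. Of the partner genes, the replicate block gave 3 higher and 3 lower, and array weights 3 and 6. With array weights 30.5% of all genes were called, against 21.4% in the main fit. That fit weighted 15EN replicate 3 at 0.29 and the other arrays at 1.04 to 1.66. The block left the count of listed genes as it was, and of the named relatives it changed the calls of AKR7A2, DHRS4L2 and ALDH5A1 only. The cause of these changes was not tested. With 1 array left out, counts ran from 1301 to 3227 higher and 970 to 2240 lower over all genes (1301 and 970 without VC replicate 2, 1424 and 1378 higher without VC replicates 1 and 3), 1 to 2 higher and 2 to 3 lower for the listed genes, 1 to 4 and 0 to 6 for relatives, and 1 to 3 and 0 to 4 for partner genes. Small differences that changed sign ran from -0.13 to 0.31 in ALDH18A1 (below 0 without VC replicate 1 or 2), from -0.034 to 0.14 in DHRS7 (below 0 without 15EN replicate 3 or VC replicate 1), from -0.14 to 0.24 in ALDH1A2 (below 0 without 15EN replicate 1 or VC replicate 2) and from -0.060 to 0.41 in AKR1E2 (below 0 without 15EN replicate 1). Signal near background limits the values of the AKR1C genes, of DHRS2 in VC and of the dim relatives.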

Other observations

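ALDH5A1, the succinic semialdehyde dehydrogenase that completes the breakdown of GABA, was looked at after its values were seen, because the series title names GABA. Its log2 signals were 7.35, 7.60 and 8.18 in 15EN, against 8.77, 8.25 and 8.51 in VC. The groups were apart, with replicate 3 the nearest pair. The log2 difference was -0.80 ± 0.26 (SE, limma adjusted p = 0.0548), above the threshold. It was called with the replicate number as a block (adjusted p = 0.0483), without the dimmest 33.3% of genes (0.042), with array weights (0.00733) and without 15EN replicate 3 (-1.04, 0.0054). Over its 14 alternatives the adjusted p ran from 0.0054 to 0.844.

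The retinal dehydrogenases ALDH1A1, ALDH1A2 and ALDH1A3, which make retinoic acid, were also picked after their values were seen, since the cells were differentiated with it. They differed by -0.43 ± 0.28, 0.08 ± 0.25 and 0.10 ± 0.20 (SE) and did not pass (limma adjusted p = 0.336, 0.875 and 0.798). ALDH1A1 (5.84 in 15EN, 6.28 in VC) and ALDH1A3 (6.75 in 15EN, 6.65 in VC) were below the negative control percentile on all 6 arrays, so a difference there may not be detectable. With arrays scaled to the hybridization controls ALDH1A2 (0.95) and ALDH1A3 (0.97) passed, close to the median gene there (0.88).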
